A study of Mus musculus with 24 samples.

Results

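The 10 genes described here encode secreted ligands that act on blood vessels: the vascular endothelial growth factor (VEGF) family members Vegfa, Vegfb, Vegfc, Vegfd and Pgf, the platelet-derived growth factor (PDGF) chains Pdgfa and Pdgfb, the angiopoietins Angpt1 and Angpt2, and the angiogenesis inhibitor thrombospondin 1 (Thbs1). They were picked by name, with symbols matched to Ensembl identifiers through the mouse GRCm38 annotation, from 55487 genes in a table of normalized RNA-seq counts. All 10 were among the 14541 genes that passed the filter on low values, which asked for 10 or more normalized counts in 6 or more of the 24 libraries. The libraries came from wild type C2C12 myotubes, the contractile multinucleate cells that form when this established mouse myoblast line fuses. Every culture was differentiated in 5 % O2 and was at day 5, and there were 4 groups of 6 biological replicates. Unstimulated myotubes spent 2 h in 5 % O2 (5CTRL) or in 1 % O2 (1CTRL). Stimulated myotubes spent the same 2 h in 5 % O2 (5STIM) or 1 % O2 (1STIM) and then received short repeated bouts of high-frequency electrical pulses, with the medium renewed before and after. Whether unstimulated cultures had the same medium renewal and the same added time is not given. Pulses, renewal and time therefore cannot be told apart in any stimulation or interaction result below. All groups came from 1 cell line in monoculture, with no vessel cells to respond to the ligands.

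VEGFA is the main signal that makes endothelial cells sprout, and its gene is a classical target of the hypoxia-inducible factors. Its relatives have narrower roles: VEGFC and VEGFD drive lymphatic vessel growth, PGF binds the receptor FLT1, and VEGFB is linked to fatty acid handling by endothelium. PDGF-B recruits pericytes to new vessels, ANGPT1 stabilises vessels through the receptor TEK, ANGPT2 can oppose it there, and thrombospondin 1 restrains capillary growth through CD36 and CD47. In skeletal muscle the fibres themselves are a major source of VEGFA. The study itself asked how oxygen limitation affects mitochondrial calcium uptake and mitochondrial adaptation to contraction. Its 4 groups of libraries allowed low oxygen and electrical stimulation, alone and together, to be compared in cultured myotubes.

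The 3 relatives whose transcripts moved in different ways are shown first by the bases just upstream of their start sites: Vegfa, higher in 1 % O2 without stimulation, Vegfb, for which no comparison passed the test on the values as deposited, and Vegfc, lower in 1 % O2 and higher after stimulation. The 250 bases before each RefSeq start site (GRCm38.p6) are written 5′ to 3′ on the strand of the gene, and none of these bases is exonic in GENCODE M21. Capitals mark GCGTG on either strand, a core to which hypoxia-inducible factors can bind. The Vegfa window is chr17:46032378-46032627 on the minus strand, the Vegfb window chr19:6987652-6987901 on the minus strand, and the Vegfc window chr8:54077282-54077531 on the plus strand.
Vegfa: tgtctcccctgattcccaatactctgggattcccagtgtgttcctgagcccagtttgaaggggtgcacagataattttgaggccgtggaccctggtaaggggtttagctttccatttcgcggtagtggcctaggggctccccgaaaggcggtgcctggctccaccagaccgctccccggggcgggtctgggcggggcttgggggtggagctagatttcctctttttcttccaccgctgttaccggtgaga
Vegfb: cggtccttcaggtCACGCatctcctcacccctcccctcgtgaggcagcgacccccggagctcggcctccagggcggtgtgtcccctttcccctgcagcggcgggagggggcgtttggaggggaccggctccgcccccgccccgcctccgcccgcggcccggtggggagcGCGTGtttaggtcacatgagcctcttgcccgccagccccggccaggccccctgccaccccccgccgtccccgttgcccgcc
Vegfc: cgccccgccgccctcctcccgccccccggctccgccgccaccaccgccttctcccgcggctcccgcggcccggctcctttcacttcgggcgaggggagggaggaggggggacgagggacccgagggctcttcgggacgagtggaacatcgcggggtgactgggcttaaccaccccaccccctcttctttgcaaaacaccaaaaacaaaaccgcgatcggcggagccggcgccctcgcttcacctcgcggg
The windows of 250 bases before to 50 bases after the start were searched on both strands for the hypoxia cores ACGTG and GCGTG and for TGANTCA and TGACGTCA, the motifs of AP-1 and CREB factors, which are linked to activity-dependent transcription. The reference held 9 such windows for 6 members, and none for Pdgfb, Angpt1, Angpt2 and Thbs1. GCGTG occurred at 2 places in the Vegfb window, at 237 bases before the start on the minus strand and at 81 bases before it on the plus strand. It occurred once in 1 of 2 Pgf windows and once in 1 of 2 Pdgfa windows, on the minus strand in both. All 300 bases of that Pgf window were exonic, and 143 of the 300 in that Pdgfa window. A second Vegfa start, inside the gene, had a window (chr17:46025114-46025413) with 218 exonic bases, 67 of them coding, that held GCGTG on the plus strand and ACGTG on the minus strand without overlap. The Vegfa window printed above, the Vegfc window and the Vegfd window (194 exonic bases) held neither core. TGANTCA and TGACGTCA were in none of the 9. Among 32851 promoter windows of the same length, 43.77 % held ACGTG or GCGTG, 7.808 % held TGANTCA and 1.79 % held TGACGTCA. These matches describe letters in short windows only, and a window without a match says nothing of a factor that binds elsewhere.

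Library totals lay between 26541858 and 28173745 reads. All 10 myotube markers (among them Myog, Ckm and Ttn) passed the filter, and so did all 4 myoblast markers (Myf5, Pax7, Mki67 and Top2a), so the cultures held RNA of both lists. Of 6 endothelial markers 1 passed, Emcn and Tie1 had no read in any library (which allows up to 3 reads in each), and the summed endothelial level was 25.7 to 66.5 normalized counts in single libraries. Macrophage markers summed to 38.1 to 89.1. Summed myotube markers were lower in 1CTRL (423720 to 463350) than in 5CTRL (480340 to 528370), and summed myoblast markers were higher (3244 to 5217 against 2630 to 3048). The myotube sum did not stand for every gene in it. Myh3 averaged 139000 in 5CTRL and 105591 in 1CTRL, while Acta1 averaged 161576 and 163668. Tested singly, 7 of the 10 myotube markers were lower in 1CTRL and none was higher, where 30.5 % of all genes tested were lower and 29.4 % higher. With equal library totals 4 of the myotube markers were lower (Actn2, Myh3, Myh8 and Myog) and 2 higher (Des and Mymk). The myoblast sum did not stand for every gene either. Myf5, Pax7 and Top2a were higher in 1CTRL, and Mki67 did not pass (-0.04, adjusted p = 0.766). The median myoblast sum in 1CTRL was 3591, far below its highest library. The pericyte list, of which 2 of 4 genes passed the filter, summed to 2021 to 2391 in 1CTRL and 3215 to 3745 in 5CTRL. In stimulated cultures the myoblast sum was 3522 to 4272 in 1STIM and 2911 to 3430.5 in 5STIM, the pericyte sum 2371 to 2620.1 and 3261 to 3697, and the myotube sums overlapped (416220 to 461910 and 431580 to 500880). Myog, a regulator of myotube formation, was lower with stimulation in 5 % O2 (-0.53, adjusted p = 7.19e-11) and in 1 % O2 (-0.64, adjusted p = 9.04e-13). Of the 10 myotube markers, 3 were lower with stimulation in 5 % O2 and 2 in 1 % O2, and none was higher. The others did not pass, and Myog had the largest fall of the list in both. Of all genes tested, 12 % and 10.8 % were lower. With equal library totals 2 of the myotube markers were lower with stimulation in 5 % O2 (Myh3 and Myog) and 2 in 1 % O2 (Mymk and Myog). The part of these shifts in the results below was not tested, and in RNA from whole cultures fewer cells of a kind and less RNA per cell cannot be told apart. The library 1CTRL replicate 1 stood apart from its group (root mean square deviation 0.373 on the log2 scale, against 0.248 to 0.295 in the other 23 libraries). Without it the members called numbered 9 for oxygen without stimulation, 4 for stimulation in 5 % O2 and 9 for oxygen with stimulation. They numbered 5 for stimulation in 1 % O2 and 5 for the interaction. All these counts were as with it. Stimulation in 5 % O2 and oxygen with stimulation do not use 1CTRL, so their fold changes could not move.

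Low oxygen alone moved most of the ligands, and it moved them both ways. Between 1CTRL and 5CTRL, 3 members rose (Vegfa, Vegfd and Angpt1), 6 fell (Angpt2, Pdgfa, Thbs1, Vegfc, Pdgfb and Pgf) and Vegfb did not pass the test (limma, adjusted p under 0.05 over 14541 genes). Of all genes tested, 29.4 % were higher and 30.5 % lower, so that 3 of 10 higher is near the background. The members' median log2 fold change was -0.27, against 0.00 over all genes. Group differences are on the log2(normalized count + 1) scale, with the standard error (SE) in parentheses. With libraries rescaled to the same total, 62.7 % of calls in this comparison were higher, against 49.0 % here.

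Among the members that rose in 1 % O2, the estimate for Vegfa had the smallest standard error. Its normalized counts ran from 7415 to 8439.7 in 5CTRL with a median of 8152, and from 10987.5 to 11948 in 1CTRL with a median of 11361. Every 1CTRL library was above every 5CTRL library, and the difference was 0.50 (SE 0.03, adjusted p = 2.59e-15), a 1.41-fold increase. Angpt1, the TEK agonist, ran from 2317 to 2690.3 (median 2525) in 5CTRL and from 2865 to 3656 (median 3095) in 1CTRL, again without overlap. It rose by 0.34 (SE 0.06, adjusted p = 1.26e-05). Vegfd (older symbol Figf), a low transcript, ran from 69.6 to 94.3 (median 82.8) in 5CTRL and from 89.3 to 124 (median 111) in 1CTRL. The Vegfd groups overlapped, and its rise was 0.44 (SE 0.10, adjusted p = 0.000346).

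The members that fell included the most abundant one. Thbs1 went from 107515 to 118328 normalized counts in 5CTRL (median 112513) to 59028 to 66426 in 1CTRL (median 63446). The groups were far apart, and Thbs1 fell by 0.83 (SE 0.03, adjusted p = 6.93e-22). Pdgfa, which encodes the chain of PDGF-AA, ran from 839 to 1025 (median 927) in 5CTRL and from 393 to 521 (median 479) in 1CTRL. All Pdgfa values in 1CTRL lay under those in 5CTRL, a log2 difference of -1.02 (SE 0.06, adjusted p = 1.34e-16). Pdgfb, the chain of the pericyte-recruiting PDGF-BB, ran from 713 to 770.01 (median 727) in 5CTRL and from 528 to 619.5 (median 559.6) in 1CTRL. It fell without overlap by 0.38 (SE 0.05, adjusted p = 9.71e-08). Vegfc, the lymphatic ligand, ran from 140.2 to 183 (median 168) in 5CTRL and from 85.6 to 138 (median 113) in 1CTRL, and fell by 0.56 (SE 0.09, adjusted p = 2.29e-06).

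Angpt2 had the largest fall in fold and the fewest reads. Its normalized counts ran from 34.2 to 52.4 in 5CTRL (median 43.5) and from 8.63 to 23.6 in 1CTRL (median 20.3), which rest on 33 to 52 and 9 to 24 reads. No libraries overlapped, and Angpt2 fell by 1.19 (SE 0.21, adjusted p = 7.18e-06). Pgf fell least. It ran from 463 to 564 in 5CTRL (median 539) and from 449 to 509 in 1CTRL (median 473), groups that overlapped, and the difference of -0.15 (SE 0.05, adjusted p = 0.0149) shrank to -0.07 (adjusted p = 0.238) once library totals were made equal. For Vegfb, 146 to 179 in 5CTRL and 128 to 215 in 1CTRL, the interval of the log2 difference was -0.09 to 0.28.

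**Figure D1:**
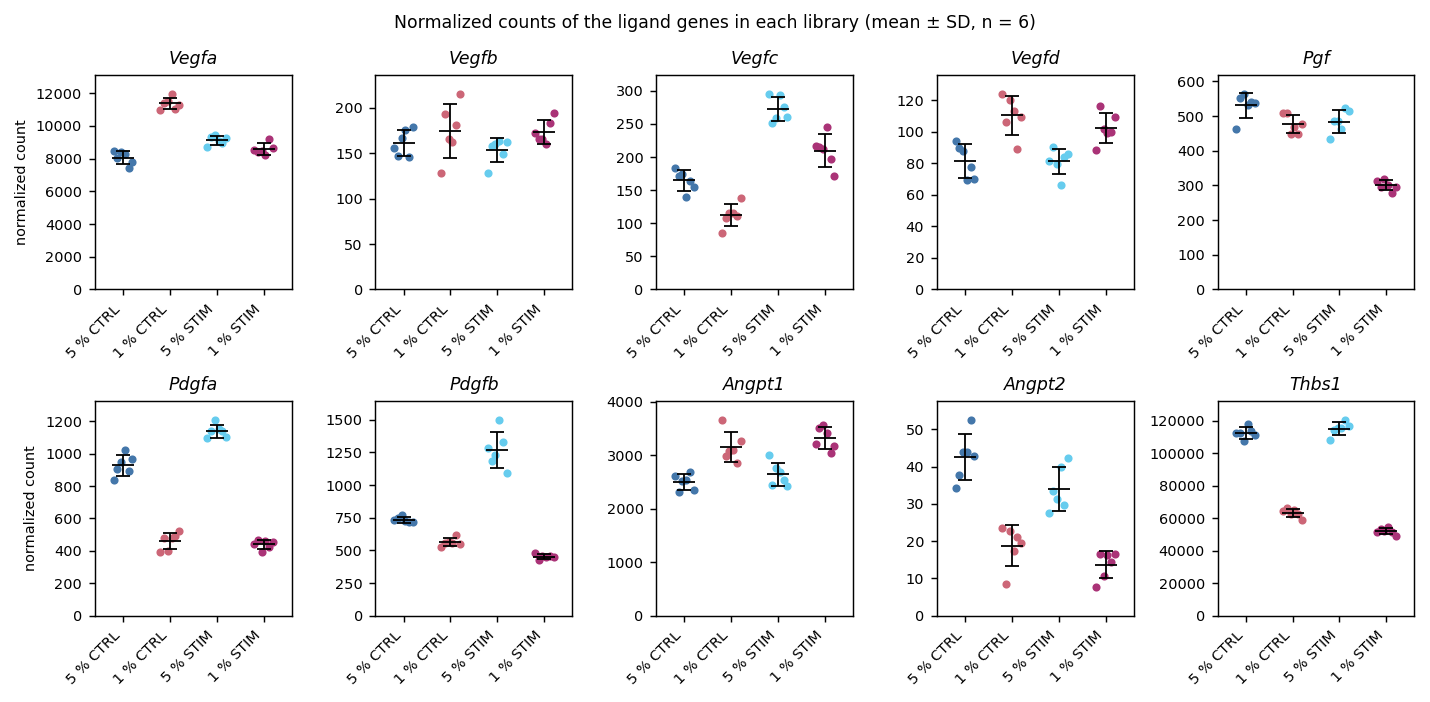
Normalized counts of each of the 10 ligand genes (vertical axes from 0, one scale per gene) in the 6 libraries of each group; points are libraries, bars the mean ± SD. Vegfa is highest in 1CTRL (mean 11374.5), Pdgfb in 5STIM (mean 1268), and Thbs1, Pdgfa and Angpt2 are low in both 1 % O2 groups.

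The Pdgfa value has a limit of its own. The annotated antisense gene 6330403L08Rik covers 813 of its exon bases (26.1 %), and 14.7 % of the 75-base words of its transcripts occur in that gene. The library kit marks strand, and whether the counting used strand is not given in the sources used here. The antisense gene moved in the opposite direction, from 436 ± 40.4 (SD, n = 6) in 5CTRL to 731 ± 26.4 in 1CTRL (log2 difference 0.75, adjusted p = 2.30e-13). Angpt1 shares 737 exon bases with Gm17473, which had at most 4.79 normalized counts in any library, and Thbs1 shares 208 with Gm29233, which had no read. Angpt2 lies antisense to Mcph1 with no exon base shared. Apart from these, no member shared a 75-base word with another gene.

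Electrical stimulation in 5 % O2 raised 4 members and lowered none. Pdgfb, Vegfc, Pdgfa and Vegfa rose in 5STIM against 5CTRL, where 9.44 % of all genes tested were higher and 12 % lower, and the median over the members was 0.05, against -0.01 over all genes. With libraries rescaled to the same total, 62.2 % of calls were higher, against 44.0 % here. Pdgfb ran from 1092 to 1494 in 5STIM (median 1256), far above its 5CTRL range, and rose by 0.78 (SE 0.05, adjusted p = 5.40e-14), or 1.72-fold. Vegfc ran from 251 to 295 (median 268), also above every 5CTRL library, and rose by 0.73 (SE 0.09, adjusted p = 1.42e-07). These were the largest estimates of the comparison among the members. Pdgfa ran from 1094 to 1205 (median 1139.8) and rose by 0.29 (SE 0.06, adjusted p = 0.000271). Vegfa ran from 8701 to 9467 (median 9176) and rose by 0.18 (SE 0.03, adjusted p = 6.14e-05), without overlap.

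The other 6 members did not pass the test in 5 % O2. Thbs1 averaged 115154 ± 4087 (SD, n = 6) in 5STIM and 112667 ± 3487 in the separate unstimulated cultures of 5CTRL, a log2 difference of 0.03 with a 95 % interval of -0.03 to 0.09. Pgf differed by -0.13 (adjusted p = 0.0790), a value that passed without 5CTRL replicate 1 (-0.17, adjusted p = 0.0191) and without 5STIM replicate 5 (-0.16, adjusted p = 0.0490). Angpt2 ran from 27.6 to 42.3 in 5STIM, overlapping 5CTRL, with a log2 difference of -0.32 (interval -0.74 to 0.10). The intervals of Angpt1 (-0.04 to 0.20), Vegfb (-0.26 to 0.12) and Vegfd (-0.21 to 0.20) also held 0.

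In 1 % O2 the same stimulation gave a different set of responses. One member rose (Vegfc) and 4 fell (Pgf, Vegfa, Pdgfb and Thbs1) in 1STIM against 1CTRL, where 11.5 % of genes tested were higher and 10.8 % lower. The members' median was -0.19, against 0.00 over all genes, and 62.3 % of calls were higher with libraries rescaled to the same total, against 51.4 % here. Vegfa ran from 8203 to 9210.2 in 1STIM (median 8513), below every 1CTRL library, and fell by 0.41 (SE 0.03, adjusted p = 3.62e-12). Pgf ran from 278 to 319.6 (median 299) and fell by 0.67 (SE 0.05, adjusted p = 7.92e-12). Pgf therefore had its lowest level in 1STIM, below all libraries of the other groups. Pdgfb ran from 428 to 477 (median 454) and fell by 0.31 (SE 0.05, adjusted p = 1.48e-05). Thbs1 ran from 49203 to 54704 (median 52037) and fell by 0.28 (SE 0.03, adjusted p = 6.71e-09). Vegfc moved the other way: it ran from 172 to 246 (median 214), above every 1CTRL library, and rose by 0.90 (SE 0.09, adjusted p = 1.04e-09), or 1.87-fold. Angpt2 did not pass (-0.41, adjusted p = 0.163), but did without 1CTRL replicate 2 (-0.61, adjusted p = 0.0169). Pdgfa stayed at 441 ± 26.8 (SD, n = 6) against 461 ± 51.8, with an interval of -0.18 to 0.06.

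The difference between the responses was itself tested, as the interaction of stimulation with oxygen. In 5 of 10 members the response was lower in 1 % than in 5 % O2, and in none was it higher, where 5.88 % of genes tested had a higher and 5.43 % a lower interaction. Pdgfb had the largest of these, -1.10 (SE 0.07, adjusted p = 4.27e-13): it rose after stimulation in 5 % O2 and fell after it in 1 % O2. Vegfa turned in the same way, with an interaction of -0.59 (SE 0.05, adjusted p = 1.82e-11). The interaction of Pgf was -0.53 (SE 0.08, adjusted p = 7.73e-06) and that of Thbs1 -0.31 (SE 0.04, adjusted p = 4.00e-06), both from falls that passed the test in 1 % O2 only. Pdgfa (-0.35, SE 0.08, adjusted p = 0.00391) rose with stimulation in 5 % O2 and passed no test for it in 1 % O2. For Vegfc, which rose under both oxygen levels, the interaction was 0.18 with an interval of -0.08 to 0.44 (adjusted p = 0.417). The members' median interaction was -0.21, against 0.01 over all genes.

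**Figure D2:**
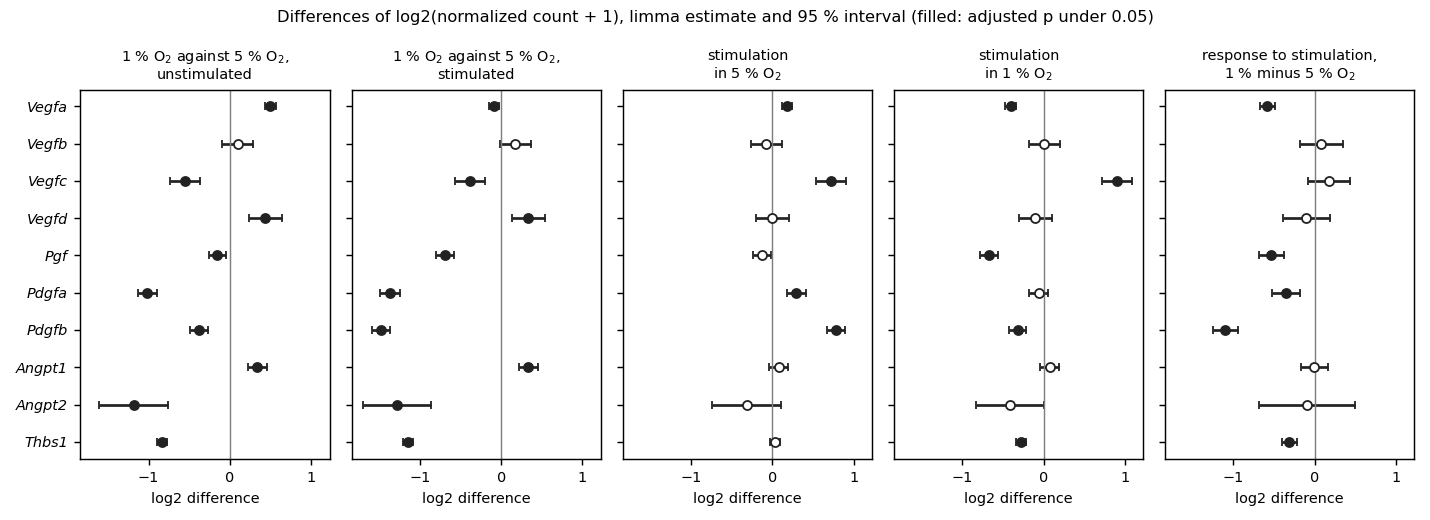
Differences of log2(normalized count + 1) for the 10 ligand genes in the 4 pairwise comparisons and the interaction (horizontal axes, limma estimate with 95 % interval; filled points have an adjusted p under 0.05). Pdgfb and Vegfa lie right of 0 for stimulation in 5 % O2 and left of 0 in 1 % O2, while Vegfc lies right of 0 in both.

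Among stimulated myotubes, low oxygen lowered 7 members and raised 2. In 1STIM against 5STIM, 29 % of genes tested were higher and 28.4 % lower, and the members' median was -0.53, against 0.00 over all genes. With libraries rescaled to the same total, 63.2 % of calls were higher, against 50.4 % here. The estimate was lowest for Pdgfb, which fell by 1.48 (SE 0.05, adjusted p = 2.08e-22), from a median of 1256 to one of 454. Pdgfa fell by 1.37 (SE 0.06, adjusted p = 5.46e-20) and Thbs1 by 1.14 (SE 0.03, adjusted p = 1.32e-25). Every 1STIM library was below every 5STIM library for both PDGF chains and Thbs1. Angpt2 ran from 7.79 to 16.7 in 1STIM (8 to 17 reads) and fell by 1.28 (SE 0.21, adjusted p = 2.34e-06). Pgf fell by 0.69 (SE 0.05, adjusted p = 6.07e-13) and Vegfc by 0.38 (SE 0.09, adjusted p = 0.000494), although Vegfc was raised by stimulation under either oxygen level. Angpt1, 2429 to 2999.5 in 5STIM and 3048 to 3576 in 1STIM, rose without overlap by 0.33 (SE 0.06, adjusted p = 1.62e-05). Vegfd, 66.4 to 90.2 against 88.7 to 117, rose by 0.33 (SE 0.10, adjusted p = 0.00491), with groups that overlapped. Angpt1 and Vegfd thus rose in 1 % O2 with and without stimulation.

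In stimulated myotubes Vegfa was not higher in 1 % O2. Its values overlapped between the groups, and the difference of -0.09 (SE 0.03, adjusted p = 0.0169) became -0.02 (adjusted p = 0.617) once library totals were made equal and missed the threshold without 1STIM replicate 4 (adjusted p = 0.0505). For Vegfb the log2 difference was 0.18 (adjusted p = 0.104), and 0.25 (adjusted p = 0.0246) once library totals were made equal. Comparisons that use the same group share its 6 libraries, so they are not independent of one another.

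Levels between genes were compared as normalized counts per kb of exon. Thbs1 ranked first, followed by Vegfa and Angpt1, in every group, with no overlap between neighbours. In 5CTRL their levels were 18552 ± 574, 1883 ± 92.8 and 480.6 ± 28.0 per kb (SD, n = 6). Pdgfa followed at 298 ± 20.8, and Pgf (183 ± 12.1) and Pdgfb (176 ± 5.19) overlapped. Vegfb (101 ± 8.99), Vegfc (67.3 ± 6.30), Vegfd (33.9 ± 4.38) and Angpt2 (11.5 ± 1.69) came last, without overlap. The middle of this order changed with the condition. In 5STIM, Pdgfb reached 305 ± 32.9 per kb and overlapped Pdgfa at 365 ± 12.7, and Vegfc (111 ± 7.62) passed Vegfb (95.8 ± 8.26) without overlap. In 1STIM, Pdgfb (109 ± 3.87), Vegfb (108 ± 8.05) and Pgf (104 ± 4.97) overlapped as neighbours.

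**Figure D3:**
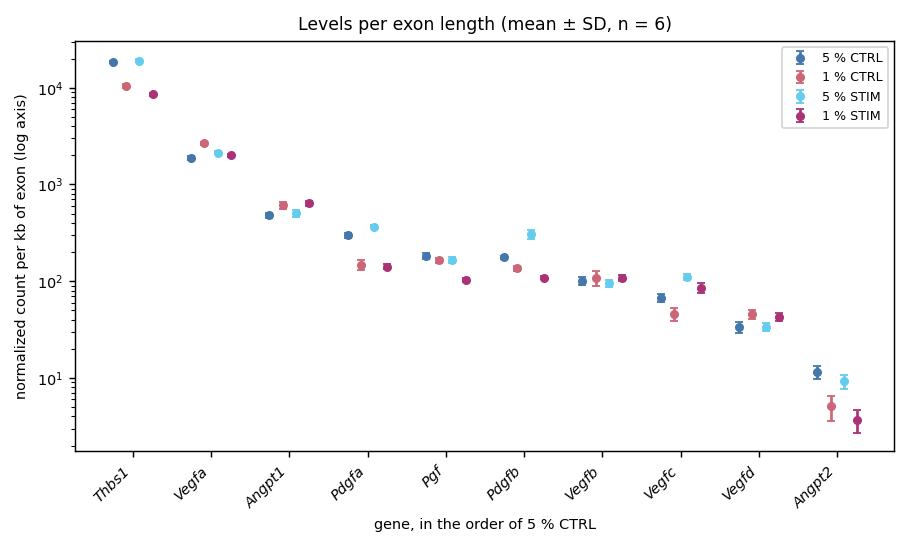
Mean normalized count per kb of exon (vertical log axis, ± SD over 6 libraries) for the 10 ligand genes, ordered by their level in 5CTRL. Thbs1 is far above Vegfa in 5CTRL (18552 against 1883 per kb) and Angpt2 is lowest in all 4 groups.

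The balance between Angpt2 and Angpt1, ligands of the same receptor with opposed roles, moved toward Angpt1 in low oxygen. The log2 ratio of Angpt2 to Angpt1 ran from -6.21 to -5.66 in 5CTRL (median -5.81) and from -8.28 to -7.02 in 1CTRL (median -7.27). It ran from -6.71 to -5.81 in 5STIM (median -6.26) and from -8.52 to -7.50 in 1STIM (median -7.64). Both 1 % O2 groups lay below both 5 % O2 groups. The difference was -1.52 without stimulation and -1.61 with it, and both gave the smallest p that 6 against 6 libraries allow in an exact two-sided permutation test (p = 0.00216, adjusted over 8 tests 0.00346). Angpt2 fell and Angpt1 rose without overlap in both comparisons. These p-values were therefore fixed by the results for the single genes and add no evidence to them. Angpt2 rested on 8 to 52 reads per library. Stimulation lowered the ratio by 0.40 in 5 % O2 (exact permutation p = 0.0303, adjusted 0.0346), a difference that missed 0.05 when any of 6 single libraries was left out, and by 0.49 in 1 % O2 without passing (exact permutation p = 0.102). The second value passed without 1CTRL replicate 2 (-0.67, exact permutation p = 0.00433).

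The share of Vegfa in the summed VEGF family level (Vegfa, Vegfb, Vegfc, Vegfd and Pgf per kb) was large in every library. It ran from 82.1 to 84.2 % in 5CTRL (median 82.9 %), 86.8 to 88.7 % in 1CTRL (median 88.1 %), 83.3 to 84.5 % in 5STIM (median 83.9 %) and 84.7 to 86.6 % in 1STIM (median 85.3 %). The 1CTRL group was above the other 3, without overlap. Low oxygen raised the share by 4.91 percentage points without stimulation and by 1.54 with it, and with stimulation in 1 % O2 the share fell by 2.44 percentage points (exact permutation p = 0.00216 for each, adjusted 0.00346). In 5 % O2 stimulation raised it by 0.93 percentage points (exact permutation p = 0.0260, adjusted 0.0346), which missed 0.05 when any of 4 single libraries was left out. The rise of 1.54 in stimulated myotubes came without a rise of Vegfa, which averaged 2131 per kb in 5STIM and 2004 in 1STIM. Between these groups Pgf went from 167 to 104 per kb and Vegfc from 111 to 85.7. Vegfb went from 95.8 to 108 and Vegfd from 33.8 to 42.6.

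**Figure D4:**
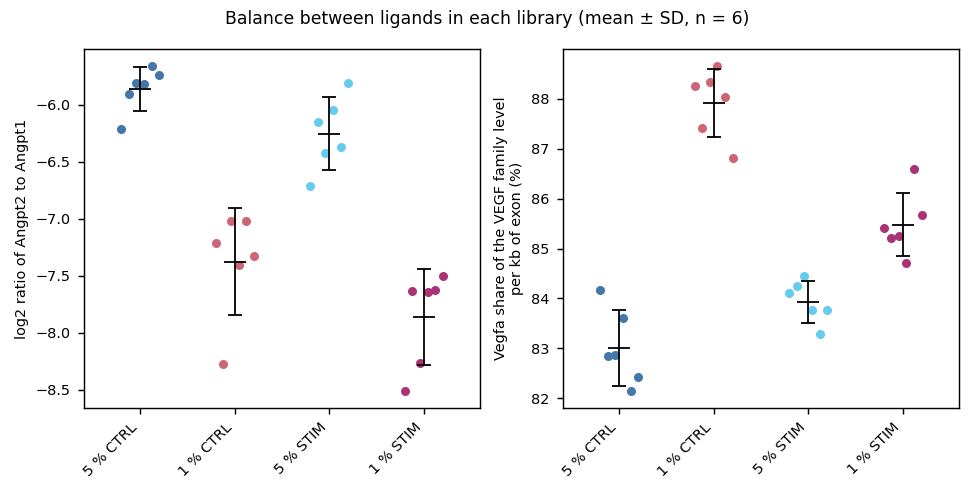
Left, log2 ratio of Angpt2 to Angpt1 normalized counts; right, Vegfa as a percentage of the VEGF family level per kb of exon (the axis does not start at 0). Points are the 6 libraries of each group and bars the mean ± SD; the ratio is lower in both 1 % O2 groups, and the share is highest in 1CTRL (mean 87.9 %).

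Likeness of pattern was the root mean square difference of log2(normalized count + 1) over the 24 libraries, with each gene centred on its mean. It includes the spread between replicates. The genes most like 3 members were sought among 10787 non-member genes with a mean of at least 100. For Vegfa these were Bhlhe40 (0.08), Noct, Bcar3, Gys1 and Foxo1, against a median of 0.25 over all such genes. Bhlhe40, a circadian repressor, averaged 7908 ± 258 (SD, n = 6) without stimulation in 5 % O2 and 10845 ± 307 in 1 % O2, and 8678 ± 242 and 9021 ± 519 with it. Like Vegfa it was highest in 1CTRL, and so was Gys1, muscle glycogen synthase, at 9307 ± 311. For Thbs1 the closest were Snx18 (0.08), Alpk2, Fbxw7, Rbm15 and Baiap2, against a median of 0.52. For Angpt2 they were Isx (0.32), Fam167a, Mat2a, Fam107a and Ccn1, against a median of 0.73. Ccn1, a secreted matrix protein that acts on vessels, fell from 11233 ± 408 in 5CTRL to 5199 ± 223 in 1CTRL. Over 24 libraries in 4 groups such likeness is a description only.

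The cultures also expressed some receptors of these ligands. Of 11 receptors and co-receptors 7 passed the filter; the main endothelial receptors Kdr, Flt4, Tek and Tie1 did not, with at most 14.7 normalized counts in any library (Tek). Low oxygen without stimulation lowered 5 of the 7, where 30.5 % of all genes tested were lower: the VEGF co-receptor Nrp1 (-0.65, adjusted p = 4.97e-18), Pdgfra (-0.49, adjusted p = 1.75e-06), the thrombospondin receptor Cd36 (-0.44, adjusted p = 9.76e-13), Flt1 (-0.32, adjusted p = 0.0183) and Pdgfrb (-0.24, adjusted p = 5.29e-07). The other thrombospondin receptor, Cd47, rose (0.34, adjusted p = 1.74e-09). Stimulation in 1 % O2 raised 5 of 7 and lowered none, where 11.5 % of genes tested were higher, among them Pdgfra by 0.53 (adjusted p = 1.84e-06) and the VEGFC co-receptor Nrp2 by 0.16 (adjusted p = 0.00188). In 5 % O2 stimulation raised Cd47 and Nrp2 and lowered Pdgfrb and Nrp1, where 9.44 % of all genes tested were higher and 12 % lower. In stimulated myotubes low oxygen lowered 3 of 7 (Nrp1, Flt1 and Cd36), not far from the 28.4 % of all genes tested, and raised Cd47. The interaction was higher in 3 (Nrp1, Pdgfra and Pdgfrb) and lower in Cd47, where 5.88 % of all genes tested were higher and 5.43 % lower. With equal library totals, 4 of 7 were lower in 1CTRL, Flt1 no longer passing (-0.24, adjusted p = 0.0703), and stimulation in 5 % O2 raised 4 and lowered 1.

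Of 6 other ligands of the same families, 5 passed the filter, and all 5 were lower in 1CTRL than in 5CTRL, where 30.5 % of all genes tested were lower. Pdgfc fell from 3244 ± 139 to 1305 ± 48.9 (SD, n = 6), a log2 difference of -1.31 (adjusted p = 1.81e-26), and Thbs2 by 0.59 (adjusted p = 1.34e-14). Pdgfd (-0.39, adjusted p = 3.13e-07) and Angpt4 (-0.30, adjusted p = 5.61e-05) moved less. In stimulated myotubes 4 of 5 were lower in 1 % O2, where 28.4 % of all genes tested were lower. Stimulation raised 2 of 5, Pdgfc and Thbs2, under each oxygen level, where 9.44 % (5 % O2) and 11.5 % (1 % O2) of all genes tested were higher. No interaction passed, where 5.88 % of all genes tested had a higher and 5.43 % a lower one. Thbs3, named because it was the fifth of these, fell in 1CTRL by 0.23 (adjusted p = 0.0250) and did not pass with equal library totals.

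Genes that process these ligands or hold them in the matrix gave calls that moved with the scaling. Of 10 listed, 9 passed the filter, of which 7 were lower and 1 higher in 1CTRL than in 5CTRL (30.5 % and 29.4 % of all genes tested), against 3 lower and 2 higher with equal library totals. The lower calls of Plat, Plau, Sparc and Ccbe1 did not pass under that scaling. Those of Furin, Hspg2 (-0.29, adjusted p = 0.0007) and Ptprb (-0.65, adjusted p = 0.0049) did, the last 2 named to complete the 7. Ptprb rested on 14 to 24 reads in 1CTRL. The gene that was higher was Adamts3 (0.73, SE 0.30, adjusted p = 0.0386), named after its value was seen. Adamts3 lay near the filter, with 4 to 17 reads in 5CTRL and 9 to 26 in 1CTRL, and the groups overlapped. Furin, which cleaves VEGFC and PDGF precursors, fell by 0.35 (adjusted p = 2.52e-09). Plat, which activates PDGF-C, fell by 0.14 (adjusted p = 0.000944) and Sparc, which binds PDGF-B, fell by 0.13 (adjusted p = 0.000126). Stimulation lowered 3 of 9 in 5 % O2 (Plau, Ccbe1 and Adamts1) and 2 of 9 in 1 % O2 (Plau and Adamts1), and raised none. Of all genes tested, 12 % and 10.8 % were lower, and 9.44 % and 11.5 % higher. With equal library totals Plau was the gene that remained lower in 5 % O2, and in 1 % O2 Plat was called higher (0.10, adjusted p = 0.0333). Plau, the urokinase that frees matrix-bound growth factors, fell by 0.59 in 5 % O2 (adjusted p = 4.58e-15) and by 0.76 in 1 % O2 (adjusted p = 4.20e-18), and its interaction passed (-0.17, adjusted p = 0.0248). In stimulated myotubes 4 of 9 (Furin, Plau, Plat and Sparc) were lower in 1 % O2 and none was higher. Of all genes tested, 28.4 % were lower and 29 % higher. With equal library totals 2 of these 9 were lower (Furin and Plau) and 1 higher (Ccbe1).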

How the data were processed

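RNA-seq of polyadenylated RNA from C2C12 myotubes was aligned with STAR 2.5.4b and quantified with RSEM 1.3.0 on GRCm38, with FastQC 0.11.7, per the labels. The deposited gene table held a signal, counts per gene that the authors had divided by DESeq2 size factors. Whole reads were recovered from it (100 % of values whole within 0.01 read). A second deposited table held the authors' own fold changes, p-values and calls and was not used. The test was limma 3.58.1 (trended, robust) on log2(normalized count + 1) over all 24 libraries, with Benjamini-Hochberg adjustment over 14541 genes, in R 4.3.3. Scripts were tested on simulated data. Ratios and shares were compared by exact permutation (scipy 1.17.1). On the recovered reads, edgeR 4.0.16 called 8744 genes and DESeq2 1.42.0 called 8630 for 1CTRL against 5CTRL, against 8708 by limma. Other alternatives were the pseudocount, the filter, library scaling, voom, the compared groups alone, a stricter threshold, a replicate block and leaving out each library.

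Every member was named whatever its value. Other pathway genes were named where called in 2 or more of 4 pairwise comparisons with a mean of at least 100 in a group, and likeness was given for Vegfa, Thbs1 and the called member that fell most in 1 % O2. Members and lists were chosen with earlier results of these data known. Exon lengths and overlaps came from GENCODE M21, matched for 99.53 % of genes, and promoters from RefSeq. Depth was alike across libraries, and the precision of a value rests on both a gene's reads and the spread between replicates. Protein sequences were not analysed here.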

Additional observations from a re-analysis of the deposited data

Results flagged for a closer look

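Of 48 groups of 6 libraries (10 genes, the Angpt2 to Angpt1 ratio and the Vegfa share in 4 groups each), 2 held a library far from the other 5, where chance alone marks about 1 in 20 groups. Pgf in 5CTRL replicate 1 was at 463 normalized counts, below the other 5 libraries of its group. The log2 ratio of Angpt2 to Angpt1 in 1CTRL replicate 2 was -8.28, below the rest of its group.

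The response to stimulation differed between 1 % and 5 % O2 by a test of the difference itself in 5 members, and the responses are given as 1 % minus 5 % on the log2 scale. The differences were -1.10 for Pdgfb, -0.59 for Vegfa, -0.53 for Pgf, -0.35 for Pdgfa and -0.31 for Thbs1, each with the limma adjusted p given above. None of these 5 calls was lost without 1CTRL replicate 1, the library that stood apart.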

How the results depend on the processing

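Of 1640 member fold changes under other settings, 1604 kept direction and side of the threshold, 5 fell below it and 4 rose past it. The other 27 changed sign, none of these in a member that passed the test in the main comparison. Many of the 1640 could not change direction. A pairwise fold change stays the same when the library left out is in neither compared group. The stricter threshold and the replicate block also leave it unchanged. The count of 1604 therefore includes values whose direction was fixed in advance. The sign changes were in values near 0. For Vegfd with stimulation in 5 % O2 they were 0.0304 with libraries rescaled to the same total, 7.8e-05 with edgeR and 0.00393 with voom, and leaving out single libraries gave -0.0436 to 0.0556. For Vegfb with stimulation in 1 % O2 they were -0.00442 with edgeR and -0.00454 with DESeq2, and -0.0746 to 0.0747 without single libraries. Leaving out single libraries moved the interaction from -0.00293 to 0.146 for Vegfb, -0.0312 to 0.0391 for Angpt1 and -0.29 to 0.0448 for Angpt2. The cause was not tested. At an adjusted p under 0.01, 1944 genes were called for stimulation in 5 % O2 (3115 at 0.05) and 830 for the interaction (1645 at 0.05), by construction fewer. Leaving out single libraries moved the genes called for the interaction between 1338 and 2318, the highest without 1CTRL replicate 1. The Angpt2 to Angpt1 difference ran from -0.484 to -0.303 for stimulation in 5 % O2 and from -0.667 to -0.357 in 1 % O2, and the Vegfa share difference for stimulation in 5 % O2 from 0.754 to 1.16 percentage points. Members called ranged from 8 to 9 for oxygen without stimulation across all these settings.

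Pairing by replicate number was not evident: same-numbered libraries correlated at -0.148 to 0.155, and differently numbered ones at -0.244 to 0.343. In addition, 0 libraries were closest to their own number in every other group, a strict criterion that cannot exclude pairing. With the replicate block, 8730, 3190, 8350, 3320 and 1710 genes were called in the 4 pairwise comparisons and the interaction, more than without it in each. The members called numbered 9, 4, 9, 5 and 5 in that order, as without the block. Depth limits Angpt2 most, with 8 to 17 reads in 1STIM.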
